A study of Zea mays with 6 samples.

Results

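The gibberellin hormone pathway was followed through 6 of its genes in mature maize anthers with and without 2 jasmonate receptor genes. The genes were taken by identifier, 6 of the 31470 genes listed in the deposited tables. The rule itself uses no measured value, though the genes were chosen with earlier results of these data known. In the order of the pathway they are an1 (Zm00001d032961, ent-copalyl diphosphate synthase), d3 (Zm00001d045563, ent-kaurenoic acid oxidase), d1 (Zm00001d039634, GA 3-oxidase), a GID1 receptor gene (Zm00001d010308) and the DELLA genes d8 (Zm00001d033680) and d9 (Zm00001d013465). The names and roles came with the identifiers, since the tables themselves hold none and a RefSeq gene table of a newer maize assembly matched 0 of the 6. Anthers of the maize inbred line B104 were sequenced as 6 RNA libraries. Wild type gave 3 of them, and plants of genotype ZmCOI2a-/-,ZmCOI2b-/- gave the other 3, called mutant here. COI proteins are F-box receptors of jasmonate, and the series concerns anther opening and male fertility. The labels do not say how the alleles were made, nor whether each library is a plant of its own. The p-values therefore cover the spread between these libraries only, part of which may be technical.

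Gibberellins are diterpenoid hormones. Ent-copalyl diphosphate synthase commits geranylgeranyl diphosphate to the pathway, ent-kaurenoic acid oxidase is a later cytochrome P450 step, and GA 3-oxidase makes the bioactive forms. The hormone binds GID1, the complex captures DELLA proteins, which repress growth, and these are then degraded. Maize plants lacking an1, d3 or d1 are dwarf and bear anthers in the ear, and dominant alleles of d8 and d9 also cause dwarfing. In Arabidopsis, gibberellin acts in stamen filament growth and pollen development partly through jasmonate, and DELLA proteins bind the JAZ repressors of jasmonate signalling.

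Library totals, inferred from the FPKM values, lay between 16845656 and 17759978 reads, so all 6 libraries had similar totals. Reads recovered over the listed genes made up 99.6% of each total, so the totals do not show sequencing depth. Values are FPKM, fragments per kilobase of counted gene length, scaled to the library total. The median log2 difference of all 18984 tested genes, mutant minus wild type, was -0.20, and differences are to be read against that shift. Median-of-ratios scaling, which sets the typical gene equal across libraries, moved this median to 0.03. Its factors were 0.855 to 0.942 in the mutant and 1.02 to 1.20 in wild type, so the scaling and the genotype cannot be told apart. Wild-type replicate 3 had the highest factor, and several of the results below turn on that library. In whole anthers, fewer cells of a type and less RNA per cell cannot be told apart. No list of anther marker genes could be matched to the identifiers, and ZmCOI2a and ZmCOI2b were not analysed here. Neither tissue nor genotype was therefore checked on transcripts.

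The 6 genes fell into 4 tiers of FPKM, which is a level per length. The DELLA genes d8 and d9 and the oxidase gene d3 formed the highest tier, with means over 6 libraries of 46.3, 44.0 and 44.8 FPKM. Neighbours in this tier could not be ordered: d8 was above d3 in 3 of 6 libraries, and d3 was above d9 in 4 of 6. GID1 followed at 10.4 FPKM, 4.22-fold below d9, then an1 at 1.42 and d1 at 0.347. From d9 downwards each gene was above the next in 6 of 6 libraries, with no overlap of their ranges. Among all listed genes of a library, d8 stood above 92.8 to 94.5% of them, d9 above 90.1 to 94.8%, d3 above 88.5 to 95.5%, GID1 above 73.9 to 82.2%, an1 above 34.3 to 51.8% and d1 above 17.8 to 38.2%. The level of an1 rests on a counted length of 7892 bp, which is 91.5% of its span of 8623 bp, against 1870 to 1921 bp for GID1, d8, d9 and d1. By the means, the order within the highest tier in the mutant was d3 (56.8 FPKM), d9 (47.2) and d8 (45.0), and it held in 3 of 3 libraries. Counting intervals overlapped for most of these steps. The 95% Poisson intervals of d9 and d8 overlapped in every mutant library, as in replicate 1 (46.9 to 51.7 and 46.3 to 51.1 FPKM). Those of d3 and d9 overlapped in mutant replicates 1 and 3, but not in replicate 2 (62.3 to 70.2 and 41.5 to 46.1 FPKM). In wild type the means stood at 47.5 FPKM for d8, 40.8 for d9 and 32.8 for d3, but only 1 of 3 libraries, replicate 2, had that order, and without replicate 3 the mean of d3 (30.0) was just above that of d9 (29.7).

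**Figure D1:**
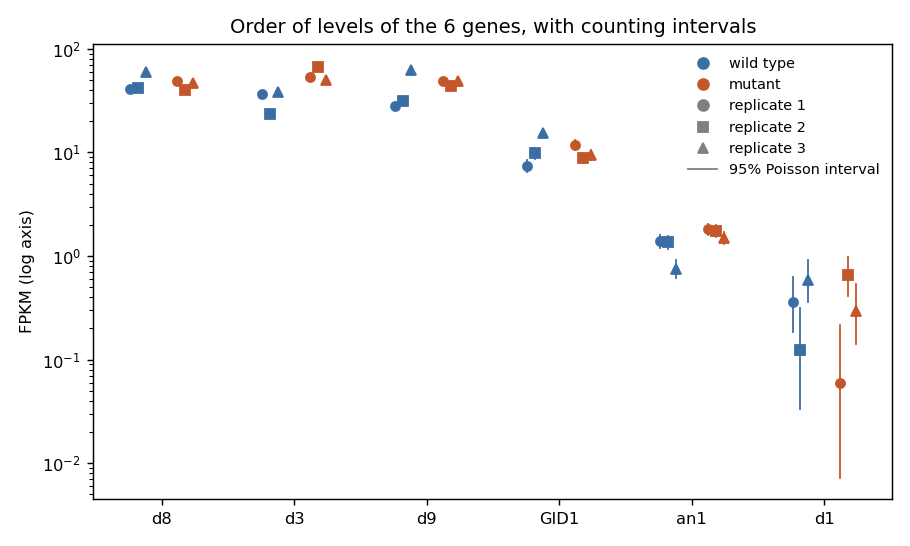
FPKM of each gene (log axis) in each library, wild type in blue and mutant in orange, with the replicate number by marker shape and vertical lines for 95% Poisson intervals of the recovered reads, which cover counting error only. The points of d8, d3 and d9 share 1 range, GID1, an1 and d1 step down without overlap, and only d1 has wide counting intervals.

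The gene an1 lies on chromosome 1 (244858795 to 244867417, plus strand, B73 RefGen_v4). Its FPKM was 1.81, 1.74 and 1.51 in mutant replicates 1, 2 and 3, and 1.39, 1.35 and 0.755 in wild-type replicates 1, 2 and 3. Every mutant library was above every wild-type library, and wild-type replicate 3 stood well below the rest. These levels correspond to 251, 241 and 211 reads for the mutant libraries and 189, 180 and 105 for wild type. The means were 1.68 ± 0.16 and 1.16 ± 0.36 FPKM (SD, n = 3 each), a ratio of 1.45. On the log2(FPKM + 1) scale, which understates changes of genes with low values, the difference was 0.32 (SE 0.17, 95% interval -0.08 to 0.72, limma adjusted p = 0.257). The difference was 0.18 without wild-type replicate 3 and 0.87 with limma-voom and median-of-ratios scaling, and no setting called it.

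The gene d3 had the largest genotype difference of the 6. It lies on chromosome 9 (26822040 to 26825680, minus strand). Its FPKM was 53.9, 66.2 and 50.2 in the mutant, against 36.4, 23.6 and 38.4 in wild type. All mutant libraries were above all wild-type libraries, the highest being mutant replicate 2 and the lowest wild-type replicate 2. The means were 56.8 ± 8.3 and 32.8 ± 8.0 FPKM (SD, n = 3 each), a ratio of 1.73. The log2 difference of 0.79 (SE 0.22, 95% interval 0.28 to 1.31) had an unadjusted limma p of 0.00712 and an adjusted p of 0.0673, so it missed the threshold of 0.05. It stood above 96.6% of the differences of all tested genes, whose median was -0.20. With median-of-ratios scaling it was 1.07 (limma adjusted p = 0.0421) and with upper-quartile scaling 0.95 (limma adjusted p = 0.04997). It also passed without wild-type replicate 3 (0.92, limma adjusted p = 0.0484) and with limma-voom after median-of-ratios scaling (1.09, adjusted p = 0.0322). These 4 settings called 5.62 to 7.23% of all tested genes. The limma-voom p-values depend on the number of recovered reads, which is uncertain for d3. Over all 14 alternatives the difference kept its sign, ran from 0.58 (without wild-type replicate 2) to 1.09, and was called in 4 and not in 10, with adjusted p from 0.0322 to 0.239. Where d3 was not called without mutant replicate 1 or 2, only 0.284% and 0.263% of all tested genes were called.

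The gene d1, whose enzyme makes bioactive gibberellins, was near the limit of detection. It lies on chromosome 3 (9745656 to 9748061, plus strand). The mutant libraries held 2, 22 and 10 of its reads, or 0.0592, 0.652 and 0.293 FPKM. The wild-type libraries held 12, 4 and 20 reads, or 0.361, 0.124 and 0.590 FPKM. The genotypes overlapped throughout, and both the lowest and the highest library were mutant. Counting error alone did not cover the spread within the mutant, where the 95% Poisson interval of replicate 1 (0.00717 to 0.214 FPKM) lay below that of replicate 2 (0.409 to 0.988). Group means were 0.335 ± 0.299 and 0.359 ± 0.233 FPKM (SD, n = 3 each, two-sided exact permutation p = 0.8). No library reached 1 FPKM, so d1 was outside the test over all genes. In the fit with no filter its log2 difference was -0.035 (95% interval -0.48 to 0.41, limma adjusted p = 0.927).

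**Figure D2:**
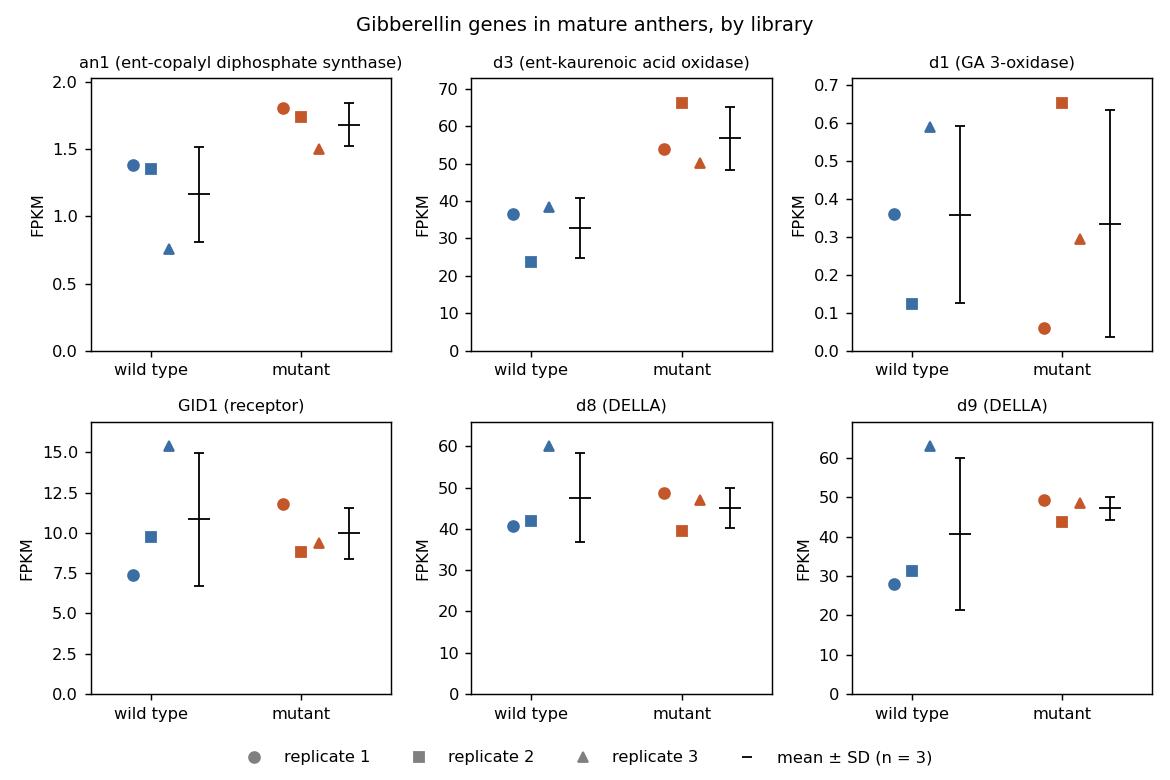
FPKM of each of the 6 genes by genotype, 1 point per library with the replicate number by marker shape, and the mean ± SD (n = 3) as a black bar; every vertical axis starts at 0. The mutant points of an1 and d3 all lie above the wild-type points, and wild-type replicate 3 (blue triangle) is the highest point for GID1, d8 and d9 and the lowest for an1.

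The hormone receptor gene GID1 lies on chromosome 8 (108952820 to 108955164, plus strand). Its FPKM was 11.8, 8.80 and 9.36 in the mutant, against 7.37, 9.78 and 15.4 in wild type. Both extremes were wild-type libraries, with replicate 3 the highest and replicate 1 the lowest, and the mutant values lay between them. The means were 9.99 ± 1.59 and 10.8 ± 4.1 FPKM (SD, n = 3 each). The log2 difference of -0.06 (SE 0.26, limma adjusted p = 0.895) had a 95% interval of -0.65 to 0.53, or 0.636- to 1.45-fold. Its sign turned with median-of-ratios scaling (0.19) and without wild-type replicate 3 (0.20), and it was not called in any of its 14 alternatives.

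The DELLA gene d8 lies on chromosome 1 (270918085 to 270919977, plus strand) and was counted over its whole span of 1893 bp. Its FPKM was 48.6, 39.6 and 46.9 in the mutant, against 40.7, 41.9 and 60.0 in wild type. The genotypes overlapped, and d8 varied least of the 6 genes, 1.52-fold between its lowest and highest library. The means were 45.0 ± 4.8 and 47.5 ± 10.8 FPKM (SD, n = 3 each). The log2 difference of -0.06 (SE 0.20, limma adjusted p = 0.863) had a 95% interval of -0.52 to 0.40, or 0.700- to 1.32-fold, and its sign turned with median-of-ratios scaling (0.21) and without wild-type replicate 3 (0.12).

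The other DELLA gene, d9, lies on chromosome 5 (12228329 to 12230206, minus strand) and was also counted over its whole span, 1878 bp. Its FPKM was 49.3, 43.8 and 48.5 in the mutant, within a narrow range, but 28.0, 31.3 and 63.0 in wild type. Wild-type replicates 1 and 2 were the lowest of the 6 libraries and wild-type replicate 3 the highest, so the genotypes overlapped through that library. The means were 47.2 ± 3.0 and 40.8 ± 19.3 FPKM (SD, n = 3 each), coefficients of variation of 6.32% and 47.4%. The log2 difference was 0.30 (SE 0.29, 95% interval -0.37 to 0.97, limma adjusted p = 0.522). Without wild-type replicate 3 the wild-type mean was 29.7 FPKM and the log2 difference 0.65 (limma adjusted p = 0.0427). That was the only 1 of 14 alternatives to call d9, over which its adjusted p ran from 0.0427 to 0.879. Of all tested genes, 7.23% were called without that library. Since d8 and d9 are close duplicates in maize, and the handling of reads that fit several genes is not given in the sources used here, the division of reads between them is uncertain.

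Set together, 0 of the 5 genes tested were called by limma with FPKM as deposited, where 6.65% of all tested genes were called. Limma-voom on the recovered reads also called 0, where it called 7.40% of all tested genes. In the fit of deposited FPKM, 1 of 5, d3, had an unadjusted limma p under 0.05, against 28.5% of all tested genes. With FPKM as deposited 3 of the 5 differences were above 0 (an1, d3 and d9), beside 29.3% of all tested genes. With median-of-ratios scaling all 5 were, as those of GID1 and d8 turned, beside 53.0% of all tested genes. The median of the 5 differences was 0.30 with FPKM as deposited, beside -0.20 for all tested genes. With median-of-ratios scaling it was 0.48, beside 0.03. In an1 and d3, 2 of 5, every mutant library was above every wild-type library, as in 7.27% of tested genes. In 35.8% of tested genes the genotypes did not overlap in one direction or the other. With 5 genes these shares describe the genes and do not test them as a group.

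**Figure D3:**
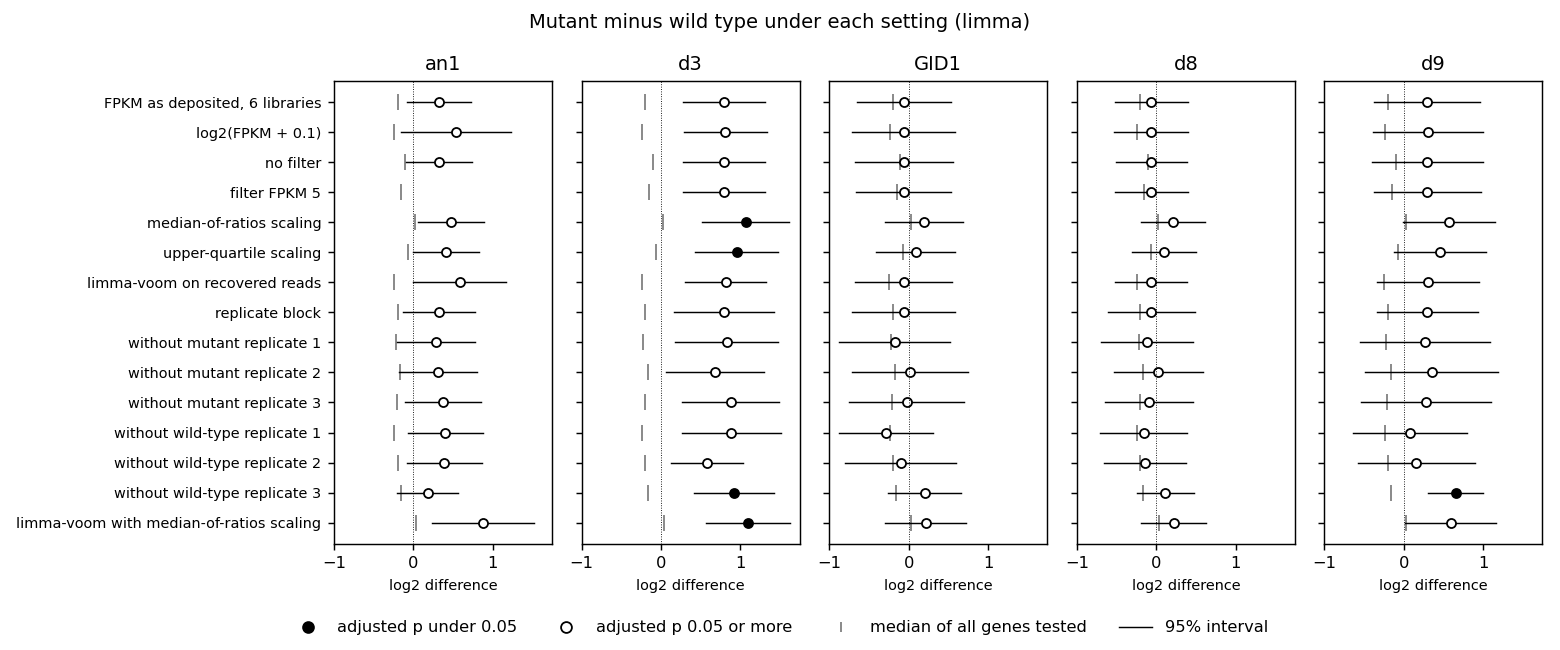
Log2 difference (mutant minus wild type) of the 5 tested genes under each setting, with 95% intervals as lines; filled circles have an adjusted p under 0.05, and grey ticks mark the median of all genes tested in that setting. The scale is log2(FPKM + 1) except for the 0.1 pseudocount and limma-voom. The filled circles are those of d3 in 4 alternatives and d9 without wild-type replicate 3, and an1 has no value with the filter of 5 FPKM.

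Ratios between genes of the same library do not depend on how libraries are scaled. The share of d8 in the summed FPKM of d8 and d9 was 49.7, 47.5 and 49.2% in the mutant, against 59.2, 57.3 and 48.8% in wild type. Wild-type replicates 1 and 2 thus had more d8 than d9, while wild-type replicate 3 and the mutant libraries had near equal levels of both. The means were 48.8 ± 1.1% and 55.1 ± 5.6% (SD, n = 3 each), a difference of -6.32 percentage points (two-sided exact permutation p = 0.3, where the design allows no less than 0.1). Without wild-type replicate 3 the difference was -9.48 points. The summed DELLA level averaged 92.2 ± 7.8 FPKM for the mutant libraries and 88.3 ± 30.1 FPKM for wild type (SD, n = 3 each).

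The ratio of d3 to the DELLA sum was looked at after the values had been seen and was not tested. It was 0.551, 0.794 and 0.527 in the mutant, against 0.530, 0.323 and 0.312 in wild type. The genotypes overlapped narrowly, as wild-type replicate 1 was just above mutant replicate 3. The mean ratio was 0.624 ± 0.148 against 0.388 ± 0.123 (SD, n = 3 each), 1.61-fold higher in the mutant, and the difference of 0.236 ran from 0.151 to 0.306 with 1 library left out. The lowest of these was without mutant replicate 2. The DELLA sum was 8.30, 9.47 and 10.2 times the GID1 level in the mutant, against 9.34, 7.49 and 7.996 times in wild type. The genotypes overlapped in this ratio, while the level of GID1 itself differed 2.09-fold between its lowest and highest library.

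**Figure D4:**
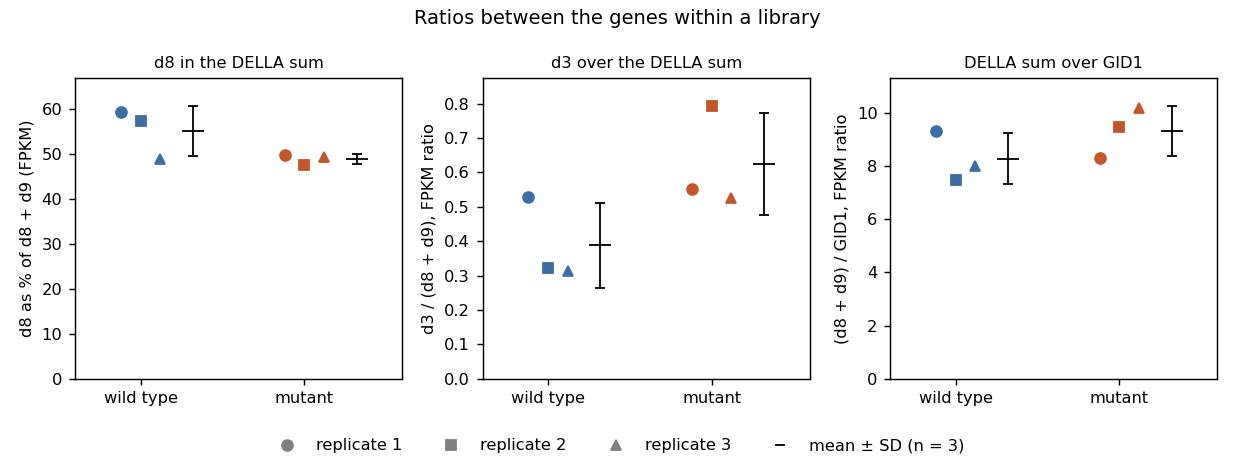
Ratios of FPKM within a library by genotype: d8 as a percentage of d8 plus d9, d3 over d8 plus d9, and d8 plus d9 over GID1, 1 point per library with the replicate number by marker shape and the mean ± SD (n = 3) in black; axes start at 0. Wild-type replicate 3 lies with the mutant in the first panel, the d3 ratio of wild-type replicate 1 touches the mutant range in the second, and the genotypes overlap in the third.

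Likeness of profiles was measured as the root mean square difference of log2(FPKM + 1), each gene centred on its own mean over the 6 libraries, so a smaller value is a closer profile. It was 0.147 between GID1 and d8, and 1.07% of tested genes were nearer to GID1 than d8 was. From the side of d8, 4.36% were nearer than GID1. The value was 0.228 between GID1 and d9, with 8.58% of tested genes nearer to GID1 and 1.78% nearer to d9. Between d8 and d9 it was 0.258, with 34.1% nearer to d8 and 3.23% nearer to d9. The distance of d3 to d9 was 0.435, with 15.3% of tested genes nearer to d3 and 37.8% nearer to d9. Its distance to d8 was 0.510, with 27.4% nearer to d3 and 87.3% nearer to d8. All 3 of GID1, d8 and d9 were highest in wild-type replicate 3, where an1 was lowest, and the part of that library in these distances was not tested. Among 18979 other tested genes, the gene nearest to d3 was Zm00001d022349 (chromosome 7, 175991154 to 175992245), at 0.0623, with 278 FPKM in the mutant and 169 in wild type. The nearest to GID1 was Zm00001d025469 (chromosome 10, 119875877 to 119878890), at 0.0387. The nearest to d8 was Zm00001d010033 (chromosome 8, 96359755 to 96364011), at 0.0358, and to d9 Zm00001d009700 (chromosome 8, 76355207 to 76355707), at 0.0702. Names for these genes were not available from the tables used, and the likeness is a description over 6 libraries.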

How the data were processed

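The authors deposited FPKM, 1 value per gene and library, and the file headers add position and strand. Tools named in the submitters' processing notes, without their roles, are Bowtie2 2.2.3, HTSeq 0.6.0 and HISAT2 2.1.0. The build named there is B73 RefGen_v4. How strand, filters and annotation release were set is not given in the sources used here. No listed gene overlapped any of the 6 genes.

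Each library total was inferred as the value most frequent among genes if each FPKM stood for a single read over the gene's span. Whole reads were recovered for 31465 of 31470 genes, as the smallest whole length at which every library gave a whole number, to a tolerance of 0.0001 reads and 3e-09 of the read number. For d3 this length was 928 bp. Longer whole multiples within its span of 3641 bp, such as 1856 bp with doubled reads, would do as well, so its reads are not printed. The limma-voom fits and the counting intervals of d3 used the reads at 928 bp, and the longer multiples were not tried. Intervals and floors cover counting error only.

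Genotypes were compared with limma 3.58.1 (R 4.3.3) on log2(FPKM + 1), letting the spread depend on intensity, over 18984 genes with at least 1 FPKM in at least 3 libraries. P-values are two-sided, Benjamini-Hochberg adjusted over all tested genes, and called under 0.05. The 6 genes and the tests were chosen with earlier results of these data known. The fit was tested on simulated data. Of 20 pathway names listed, 7 were in the RefSeq table, but it matched 0 of 30950 Zm00001d identifiers, so no other pathway gene was used. The named genes are the 6 and, for 4 of them, the gene most alike by profile. Alternatives were another pseudocount, other filters, scalings, limma-voom, a replicate block and each library left out. Limma-voom with median-of-ratios scaling was added after seeing the data, as was leaving libraries out of the d3 ratio.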

Additional observations from a re-analysis of the deposited data

How the results depend on the processing

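Over 69 refits of the 5 tested genes, 54 kept the sign and the side of the threshold, 5 gained a call and 10 turned the sign of a difference not called in either setting. The difference of d3 was called at 1.07 with median-of-ratios scaling, 0.95 with upper-quartile scaling and 1.09 with limma-voom after median-of-ratios scaling. Of all tested genes, 5.64%, 5.74% and 5.62% were called in these settings. GID1 turned to 0.19, 0.089 and 0.21 in these settings, and d8 to 0.21, 0.10 and 0.22. These scalings shift the differences of all genes by construction. With 1 library left out the differences ran from 0.18 to 0.40 for an1, 0.58 to 0.92 for d3, -0.28 to 0.20 for GID1, -0.16 to 0.12 for d8 and 0.083 to 0.65 for d9. The calls gained there, of d3 and d9, were without wild-type replicate 3, and the cause was not tested. In that setting 7.23% of all tested genes were called, against 6.65% with all 6 libraries. The genes called as rises numbered 634 there, against 361 with all 6 libraries. GID1 and d8 also turned without mutant replicate 2, to 0.016 and 0.029. The replicate block changed no call of the 5 genes (d3 at 0.79, limma adjusted p = 0.147). Same-numbered libraries did not deviate together over genes (correlations 0.01, -0.38 and -0.33), so the numbers give no sign of pairing. Correlations of unlike-numbered libraries ran from -0.17 to 0.44, the highest between mutant replicate 3 and wild-type replicate 2.

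Over all tested genes, 1262 changed (361 rose and 901 fell). With median-of-ratios scaling 661 rose and 410 fell, with upper-quartile scaling 519 and 570. The count was 292 with no filter, 748 with at least 5 FPKM, 715 with the replicate block and 50 to 1373 with 1 library left out. The d8 share kept its sign in all 7 alternatives, from -9.48 to -4.26 points. For d1, 70 reads over all 6 libraries limit what could be seen.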
